A study of Gallus gallus with 2 samples.

Results

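Genes of the extracellular matrix and its receptors were compared between cells of the chicken neural tube that received short hairpin RNAs against Sox4 and Sox11 and cells that received the plasmid without a hairpin. The set holds every chicken probe set of the array whose single platform gene symbol begins like those of collagen chains (COL and a digit), laminin chains (LAMA, LAMB or LAMC and a digit) or integrin subunits (ITGA or ITGB), together with FN1, VTN, TNC, NID1, NID2, FBN1, FBN2, SPARC, HSPG2 and AGRN. It comprised 230 probe sets for 83 genes, of 27166 probe sets for 13008 genes with 1 symbol on the array. These 83 genes were 41 collagen genes, 11 laminin genes, 10 genes of other matrix proteins, 10 integrin alpha subunit genes and 6 integrin beta subunit genes. The remaining 5 have symbols with the same first letters but encode neither a collagen nor an integrin subunit.

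The knockdown group was 1 sample of neural tube cells given pSuper-neo-GFP-Sox4-shRNA together with pSuper-neo-GFP-Sox11-shRNA, and the control group was 1 sample given pSuper-neo-GFP. In both groups the embryos were electroporated on both sides at Hamburger-Hamilton stage 9, and cells with the plasmids' GFP were sorted from dissociated neural tubes. The labels give stage 11 at harvest and also an incubation of 2 days, and the sources used here do not settle which holds. How many embryos went into each sample is not given by these sources, and no strain or other genotype is named.

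Collagens are trimers of chains, some of which assemble into fibrils of connective tissue and others into sheets or into filaments attached to fibrils. The basement membrane is a sheet of laminin and type IV collagen, which nidogens, perlecan and agrin tie together, and the epithelium of the neural tube rests on it. Integrins are receptors made of 1 alpha and 1 beta subunit that bind matrix proteins outside the cell and the actin cytoskeleton inside it. Fibrillar collagens, fibronectin and fibrillins are made largely by mesenchyme in the embryo, and laminins by epithelia and several other tissues.

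Values are MAS5 signals, a linear intensity for each probe set. Where a gene had several probe sets, the one with the highest mean of log2 signals stood for it, and a log2 ratio is the log2 of knockdown signal over control signal. A gene was called measured where the geometric mean of its 2 signals reached 118, which is the median for chicken probe sets. With 1 array per group nothing could be tested, and "higher" and "lower" describe these 2 arrays. It is the number of arrays that limits precision here. As a yardstick of size, the log2 ratios of different measured probe sets of the same gene had an SD between 0.39 at high signal and 0.56 at low signal.

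SOX4 had a signal of 3157 on the knockdown array and 6604 on the control array, and SOX11 had 2790 on the knockdown array and 4552 on the control array. Background, the 95th percentile of viral probe sets, was 65.8 on the knockdown array and 63.6 on the control array. Over chicken probe sets, the median signal was 134 on the knockdown array and 113 on the control array. Signal at the 3' end over signal at the 5' end of control transcripts, a measure of RNA integrity, came to 1.85 on the knockdown array and 5.45 on the control array for actin. For GAPDH it came to 1.05 on the knockdown array and 1.25 on the control array, and the elongation factor transcript lay between these. The part of this difference in the values given here was not tested. All 9 neural progenitor markers that matched a gene on the array were above background on both arrays, with signals summing to 111691 on the knockdown array and 123485 on the control array. Their log2 ratios, of knockdown over control, had a median of -0.12, with 3 above 0 and 6 below. SOX2 (0.76) and RFX4 (0.72) were at least 1.5-fold higher, and SOX1 (-0.77) was at least 1.5-fold lower. In such bulk samples, fewer cells of a type and less RNA per cell cannot be told apart.

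Most measured matrix and integrin genes lay within 1.5-fold, though a smaller share of them than of all measured genes. Of the 83 genes, 62 were measured, and 44 of these lay within 1.5-fold, where 7711 of all 9303 measured genes did. At least 1.5-fold higher on the knockdown array were 15 members, namely the collagen genes COL14A1, COL8A1, COL6A1, COL3A1, COL20A1 and COL4A6, the matrix genes FBN1, FBN2, TNC, NID1 and NID2, the integrin genes ITGAV, ITGA9 and ITGA1, and ITGBL1. At least 1.5-fold lower were 3 members, namely AGRN, COL6A3 and COL4A3BP. The only members past 2-fold were ITGAV and COL14A1, both higher, and none was at least 2-fold lower. Against the whole array, 15 of 62 is 24.2%, where 11.4% of all 9303 measured genes were at least 1.5-fold higher. The 3 lower members are 4.84%, where 5.71% of all measured genes had such a lower value. The 2 members past 2-fold higher are 3.23%, close to the 3.64% found over all measured genes, and 1.06% of those were past 2-fold lower. The count of 15 includes COL20A1, FBN1 and ITGA9, which reached the signal limit on the knockdown array alone and could therefore be measured only by being higher there. The other 59 measured members reached it on both arrays.

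Signal level moved with these counts. Among members with a mean signal below 813, the 75th percentile of chicken probe sets, 12 of 30 (40.0%) were at least 1.5-fold higher, where 22.7% of all genes in that range were. The 12 include COL20A1, FBN1 and ITGA9, which reached the signal limit on the knockdown array alone. Over the whole array, 264 of 9303 measured genes reached it on that array alone. Among members at or above 813, 3 of 32 (9.38%) were, where 4.84% of all such genes were, and these 3 were COL14A1, COL3A1 and NID1. At least 1.5-fold lower were 2 of the 30 dimmer members (6.67%) and 1 of the 32 brighter ones (3.12%), where 6.96% and 4.98% of all genes were.

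**Figure D1:**
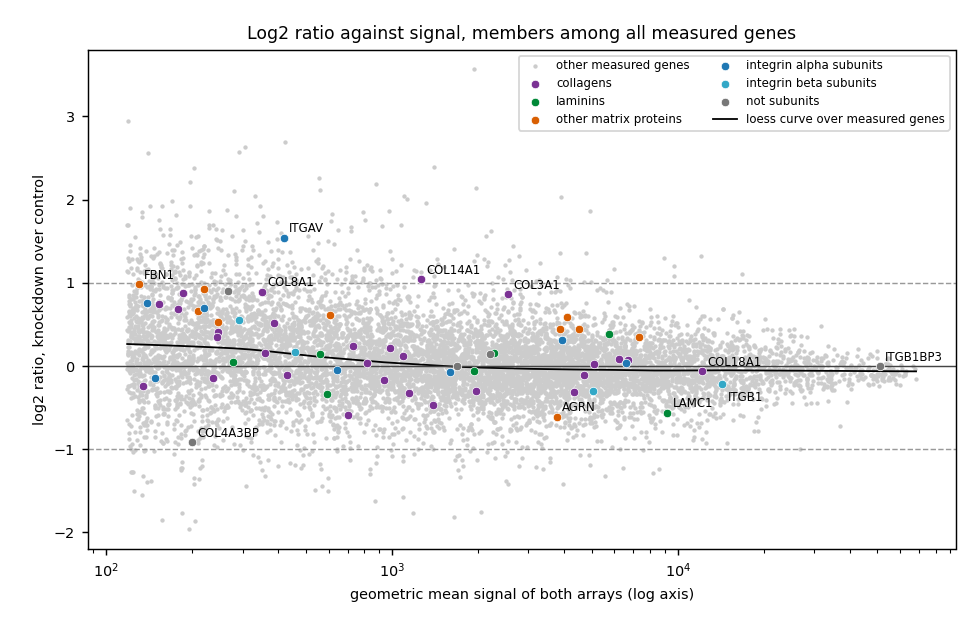
Log2 ratio of knockdown over control (vertical axis) against the geometric mean signal of both arrays (horizontal log axis) for the 62 measured members, in colour by class, and the other measured genes in grey. The loess curve over all measured genes lies above 0 at low signal, where most of the members past 1.5-fold higher are found, while ITGAV and COL14A1 lie above the 2-fold line.

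Members had a median log2 ratio of 0.14 (62 measured), where all measured genes had one of 0.02. The members' median thus lay 0.12 above that of all genes. Centring both arrays on their medians lowers every log2 ratio by the same amount, which puts the median of all measured genes at -0.23 and that of the members at -0.10 and leaves the difference as it is by construction. With quantile normalization the difference was 0.10, with a loess curve removed 0.11, and with the second-brightest measured probe set 0.0066. With median centring, 8 members passed 1.5-fold higher and 5 passed 1.5-fold lower, where 553 and 1383 of all measured genes were. With quantile normalization 9 members were higher and 3 lower, where 722 and 756 of all measured genes were.

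Of the 18 members past 1.5-fold, 8 stayed past it in the same direction under each of 6 alternatives of scaling, background floor and probe set. These were ITGAV, COL14A1, COL3A1, COL8A1 and FBN1, which were higher, and AGRN, COL6A3 and COL4A3BP, which were lower. FBN1 could be measured only by being higher on the knockdown array, and its other probe sets were at or below background on both arrays. ITGAV was the only member past 2-fold under all 6. ITGAV, FBN1, AGRN, COL6A3 and COL4A3BP have 1 measured probe set each, so the alternatives that use other probe sets left their values as they were. The floor could change no value, since every measured member was above background on both arrays. Median centring lowers every log2 ratio, so it could only keep AGRN, COL6A3 and COL4A3BP past 1.5-fold lower. FBN2 was the only one of the 18 whose direction turned, with -0.04 for its second-brightest probe set.

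**Figure D2:**
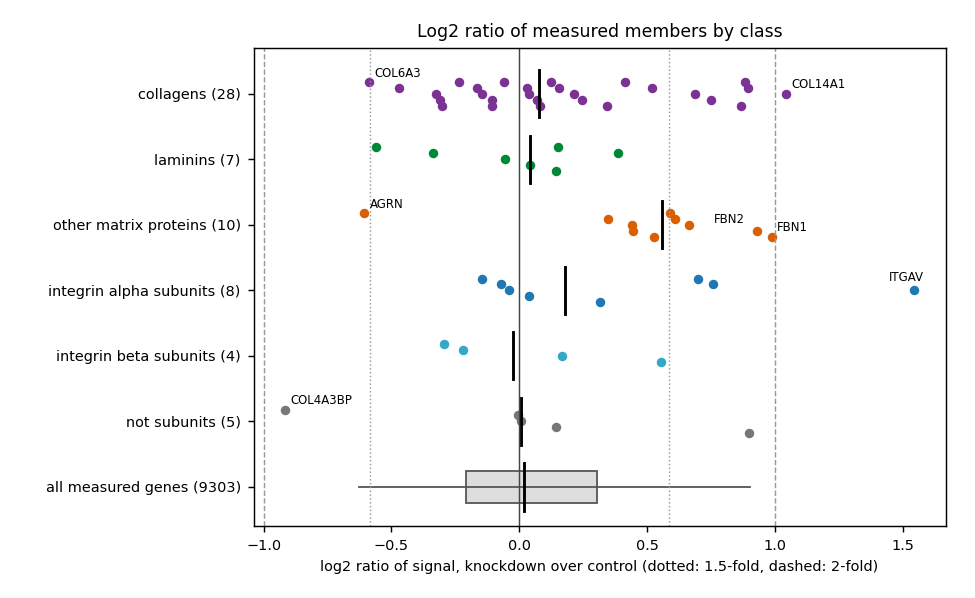
Log2 ratio of knockdown over control for each measured member (points) by class, with class medians as black bars, above all 9303 measured genes (box for the middle 50%, line for the middle 90%). Other matrix proteins have a median of 0.56, with 9 of 10 members above 0, while the medians of the other classes lie between -0.03 and 0.18. Of all 9303 measured genes, 4850 lie above 0.

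Measured laminin chains lay within 1.5-fold in the values as deposited, though LAMC1 was at -0.81 and past 1.5-fold lower under median centring. Of 11 laminin genes 7 were measured, with log2 ratios from -0.56 to 0.39 and a median of 0.04, which took a negative sign under 5 of 9 alternatives. LAMC1, the gamma chain found in most laminins, had a signal of 7555 on the knockdown array and 11144 on the control array (log2 ratio -0.56). Its second probe set gave 1853 on the knockdown array and 2714 on the control array (log2 ratio -0.55). Both measured probe sets of LAMC1 were thus lower on the knockdown array by nearly the same ratio.

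LAMB1, the beta chain that joins LAMC1 in the laminins of early embryos, went the other way, with 6565 on the knockdown array and 5017 on the control array (log2 ratio 0.39). LAMA1, the alpha chain of the first embryonic laminin, had 2399 on the knockdown array and 2158 on the control array (log2 ratio 0.15). Its second measured probe set gave -0.22. LAMA5, an alpha chain of many epithelia, had 1905 on the knockdown array and 1980 on the control array. LAMB1 and LAMC1, which assemble into the same trimer, thus had opposite signs on these arrays. LAMB1 has 1 measured probe set, and its value lay within the spread of 0.45 (SD) between probe sets of a gene at that signal. The remaining measured laminins were LAMB2 (log2 ratio 0.14), LAMA4 (0.04) and LAMA2 (-0.34).

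Type IV collagen, the network former of basement membranes, had 4 measured chains of 6. COL4A5 had 3879 on the knockdown array and 4815 on the control array (log2 ratio -0.31), and COL4A2 had 1774 on the knockdown array and 2188 on the control array (log2 ratio -0.30). Of the 5 measured probe sets of COL4A2, 4 were lower on the knockdown array and 1 was higher, from -0.55 to 0.50. COL4A1, which forms trimers with COL4A2, had 379 on the knockdown array and 341 on the control array (log2 ratio 0.15). COL4A6 stood apart from the other 3, with 225 on the knockdown array and 140 on the control array (log2 ratio 0.69). COL18A1, a basement membrane collagen that carries heparan sulfate, was nearly even, with 11956 on the knockdown array and 12463 on the control array.

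The linkers of the basement membrane were higher on the knockdown array with the exception of agrin. NID1, a nidogen that bridges laminin and type IV collagen, had 5034 on the knockdown array and 3347 on the control array (log2 ratio 0.59). NID2, the other nidogen, had 747 on the knockdown array and 490 on the control array (log2 ratio 0.61, 1.53-fold). HSPG2 (perlecan), a large heparan sulfate proteoglycan, had 296 on the knockdown array and 205 on the control array (log2 ratio 0.53), and its other measured probe sets gave 0.04 and 0.55.

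AGRN (agrin), the other heparan sulfate proteoglycan of this group, was lower, with 3055 on the knockdown array and 4653 on the control array (log2 ratio -0.61, 1.52-fold). Its value exceeded the spread of 0.45 (SD) between probe sets of a gene at that signal, and those of NID1 and NID2 exceeded spreads of 0.45 and 0.47. Under median centring NID1 stood at 0.34 and NID2 at 0.36, within 1.5-fold. AGRN has 2 further probe sets, which were at or below background on both arrays.

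**Figure D3:**
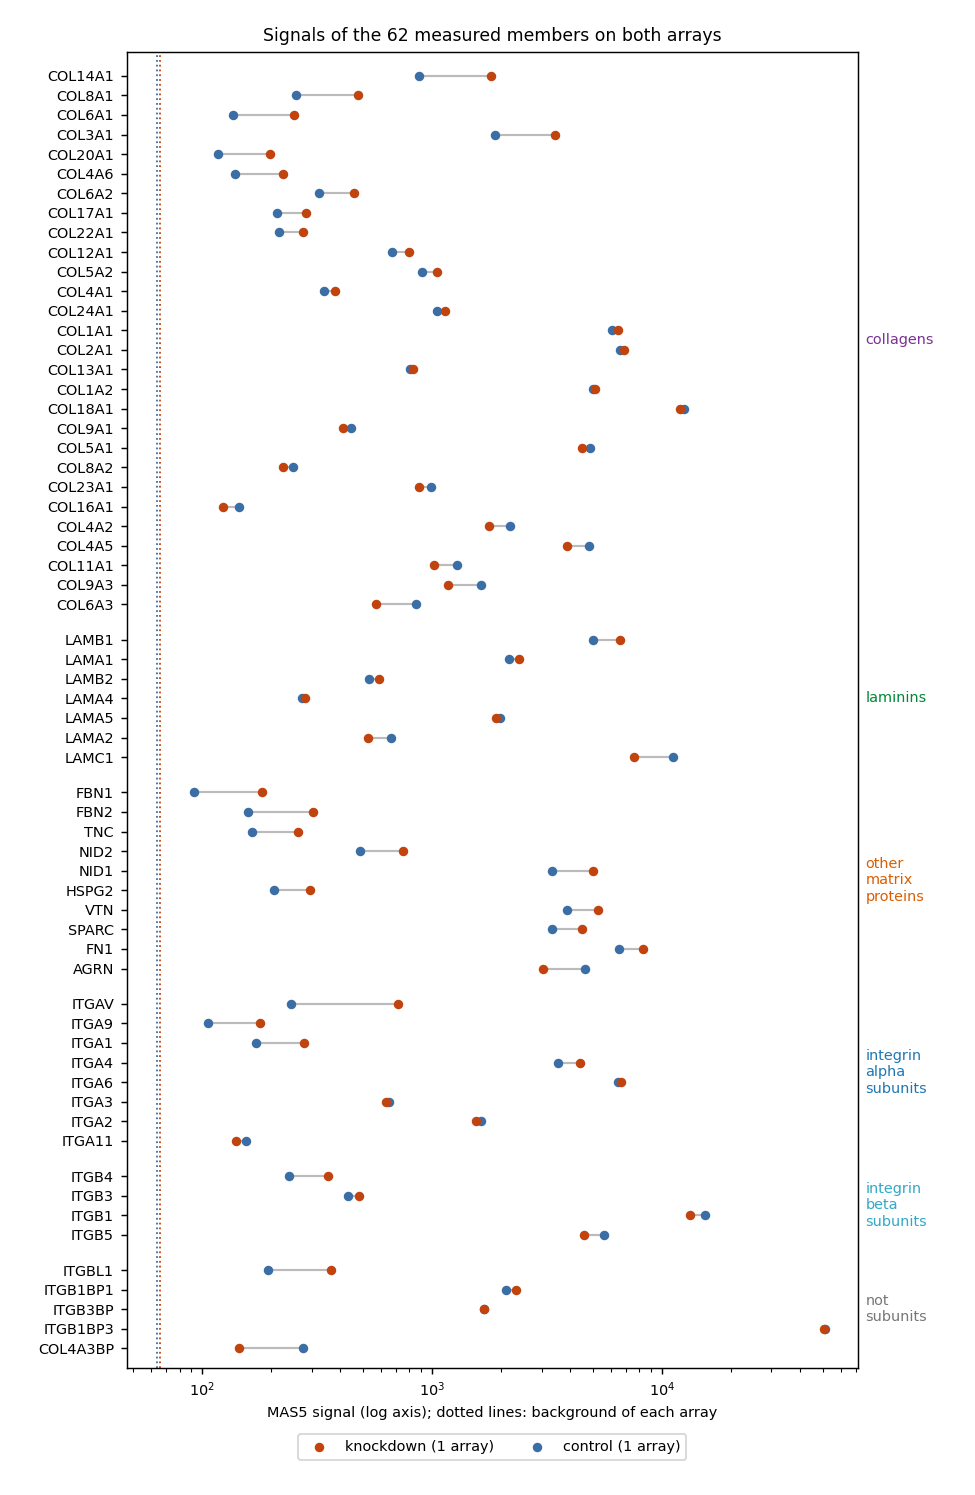
MAS5 signal (horizontal log axis) of the 62 measured members on the knockdown array and the control array, ordered by log2 ratio within each class; dotted lines mark the background of each array. ITGAV shows the widest gap, with 713 on the knockdown array and 244 on the control array, while COL1A1, COL1A2 and COL2A1 nearly coincide.

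Fibrillar collagens, which form the fibres of connective tissue, were close to even except COL3A1. The major fibril chains COL1A1, COL1A2 and COL2A1 had log2 ratios of 0.08, 0.03 and 0.07. COL1A1 had 6437 on the knockdown array and 6078 on the control array, and COL1A2 had 5132 on the knockdown array and 5030 on the control array. COL2A1, the collagen of cartilage and notochord, had 6878 on the knockdown array and 6559 on the control array, though its other 2 measured probe sets gave 0.64 and 0.42.

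COL3A1, the fibrillar collagen of soft and extensible tissues such as vessel walls, had 3446 on the knockdown array and 1891 on the control array (log2 ratio 0.87, 1.82-fold). All 3 of its measured probe sets were higher on the knockdown array, with log2 ratios of 0.87, 1.67 and 0.96. COL5A1 and COL5A2, which set fibril diameter, had log2 ratios of -0.11 and 0.21. COL11A1, which has a like part in cartilage fibrils, had -0.33, and COL24A1 had 0.13. Over the 8 measured fibrillar collagens of 9 the median was 0.08, and COL3A1 was the only one past 1.5-fold.

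Collagens that attach to fibrils included the highest collagen value. COL14A1, which binds the surface of fibrils, had 1812 on the knockdown array and 880 on the control array (log2 ratio 1.04, 2.06-fold). Its other 2 measured probe sets gave 542 on the knockdown array against 190 on the control array (log2 ratio 1.51), and 196 on the knockdown array against 136 on the control array (log2 ratio 0.53). All 3 were higher on the knockdown array, but COL14A1 stood at 0.80 under median centring, below 2-fold.

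COL12A1, a close relative of COL14A1, had 795 on the knockdown array and 670 on the control array (log2 ratio 0.25), and its other measured probe sets gave 0.66 and 0.99. COL20A1 had 199 on the knockdown array and 118 on the control array (log2 ratio 0.75). COL22A1, found at tissue junctions, had 0.35, with 0.81 for its second measured probe set. COL9A1 and COL9A3, which coat cartilage fibrils, were at -0.11 and -0.47, and COL16A1 was at -0.24. Of the 7 measured collagens of this kind, 4 lay above 0 and 3 below.

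Type VI collagen forms beaded filaments from 3 different chains, and the measured chains did not share a direction. COL6A1 had 252 on the knockdown array and 137 on the control array (log2 ratio 0.88, 1.84-fold), with 0.45 for its second measured probe set. COL6A2 had 461 on the knockdown array and 322 on the control array (log2 ratio 0.52), with 1.06 for its second probe set. COL6A3 was lower, with 570.5 on the knockdown array and 856 on the control array (log2 ratio -0.59), and has no second measured probe set.

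Among the remaining collagens, COL8A1, a short-chain collagen of vessel walls and eye membranes, had 476 on the knockdown array and 256 on the control array (log2 ratio 0.89, 1.86-fold). Its second probe set was higher as well, at 0.68, while its relative COL8A2 was at -0.15. The collagens that span the cell membrane lay within 1.5-fold, with COL17A1 of hemidesmosomes at 0.42, COL13A1 at 0.04 and COL23A1 at -0.16. Over all 28 measured collagens of 41, the median was 0.08, with 17 above 0 and 11 below. Of all 9303 measured genes, 4850 lay above 0 and 4452 below.

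The other matrix proteins were the class that lay furthest from the median of all genes. Of its 10 genes, all measured, 9 were above 0 and AGRN was below, where 4850 of all 9303 measured genes were above 0. At least 1.5-fold higher were 5 of the 10, where 11.4% of all measured genes were. At least 1.5-fold lower was 1, where 5.71% of all measured genes were. The class median of 0.56 stayed above 0 under each of 9 alternatives, with a lowest value of 0.31 under median centring and 0.36 with the second-brightest measured probe set. Of these, the floor at background, the lower signal limit and the absence of a limit could not change the class median. The reason is that all 10 genes were measured and above background on both arrays. Median centring lowers every log2 ratio by the same amount, so its value of 0.31 follows from that amount alone. AGRN, FBN1, NID1, NID2, TNC and VTN have 1 measured probe set each, so the other probe set rules left their values as they were. FBN1 reached the signal limit on the knockdown array alone, so it could be measured only by being higher there. This class was set by name in the rule that defines the whole set, and its members have no common biochemical function beyond the matrix.

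FN1 (fibronectin), the adhesive glycoprotein on which mesenchymal and neural crest cells move, had 8270 on the knockdown array and 6509 on the control array (log2 ratio 0.35). Its 3 other measured probe sets gave 0.26, -0.07 and 0.10. VTN (vitronectin), an adhesive protein that binds integrins with the alpha V subunit, had 5258 on the knockdown array and 3858 on the control array (log2 ratio 0.45). Neither gene reached 1.5-fold.

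The fibrillins, which build microfibrils, had the largest log2 ratios of the class. FBN1 had 183 on the knockdown array and 92.1 on the control array (log2 ratio 0.99, 1.98-fold). FBN2, the fibrillin of early development, had 304 on the knockdown array and 160 on the control array (log2 ratio 0.93, 1.91-fold), but its other measured probe sets gave -0.04 and 0.44. Both genes were dim, and the spread between probe sets of a gene at their signals was 0.56 and 0.54 (SD).

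TNC (tenascin-C), a matrix protein that modulates adhesion, had 263 on the knockdown array and 166 on the control array (log2 ratio 0.66). SPARC, a collagen-binding protein that modulates matrix assembly, had 4501 on the knockdown array and 3317 on the control array (log2 ratio 0.44). The 3 probe sets of SPARC disagreed in size. One gave 2451 on the knockdown array and 487 on the control array (log2 ratio 2.33), and another 2533 on the knockdown array and 2430 on the control array (log2 ratio 0.06). All 3 were measured and lay above 0, and no deposited value tells which follows the transcript best.

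Among integrin alpha subunits, ITGAV stood above all other measured members in log2 ratio. ITGAV encodes alpha V, the subunit of receptors for vitronectin and fibronectin that recognise the tripeptide RGD. It had 713 on the knockdown array and 244 on the control array (log2 ratio 1.55, 2.92-fold), past the probe set spread of 0.49 (SD) at that signal. It is represented by 1 probe set, so no second measurement on the arrays stands beside it. Under median centring it was at 1.30.

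By their brightest probe sets, ITGB3 and ITGB5, which encode beta subunits that pair with alpha V, had log2 ratios closer to 0. ITGB3 had 485 on the knockdown array and 431 on the control array (log2 ratio 0.17), with 0.73 for its second measured probe set. ITGB5 had 4578 on the knockdown array and 5612 on the control array (log2 ratio -0.29). ITGB6, the epithelial partner, was at or below background on both arrays. ITGA8, the other RGD-binding alpha subunit in the set, was below the signal limit, and its 2 probe sets went opposite ways. The brighter one had 139 on the knockdown array and 55.1 on the control array, and the other had 12.2 on the knockdown array and 71.3 on the control array, so no fold is given.

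ITGB1, the beta subunit shared by most matrix-binding integrins, had 13247 on the knockdown array and 15428 on the control array (log2 ratio -0.22), and its second probe set gave -0.03. Alpha subunits that pair with it to bind laminin were even. ITGA6 had 6656 on the knockdown array and 6479 on the control array (log2 ratio 0.04), though 0.59 for its dimmer probe set, and ITGA3 had 635 on the knockdown array and 653 on the control array (log2 ratio -0.04). ITGB4, which joins ITGA6 in hemidesmosomes, had 353 on the knockdown array and 240 on the control array (log2 ratio 0.55).

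Of the collagen-binding alpha subunits, ITGA1 had 279 on the knockdown array and 172 on the control array (log2 ratio 0.70, 1.62-fold). ITGA2 and ITGA11 were nearly even, at -0.07 and -0.14. ITGA4, the receptor subunit for fibronectin and VCAM1, had 4405 on the knockdown array and 3537 on the control array (log2 ratio 0.32), with -0.35 for its second probe set. A further probe set of ITGA4 lay just under the signal limit, with 210 on the knockdown array and 63.3, just below background, on the control array. ITGA9, the closest relative of ITGA4, had 180 on the knockdown array and 106 on the control array (log2 ratio 0.76, 1.69-fold).

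Over the 8 measured alpha subunits of 10, the median log2 ratio was 0.18, where that of all measured genes was 0.02. Over the 4 measured beta subunits of 6 it was -0.03 and was positive under 3 of 9 alternatives. In the values as deposited, 3 of the 8 alpha subunits were at least 1.5-fold higher, where 11.4% of all measured genes were. No alpha subunit was at least 1.5-fold lower, and no beta subunit was past 1.5-fold in either direction. Of the 3, ITGA9 reached the signal limit on the knockdown array alone. Under each of the 3 scalings, ITGAV was the only alpha subunit still at least 1.5-fold higher.

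The 5 genes that share only the first letters of their symbols had a median of 0.01. COL4A3BP, which in mammals encodes a ceramide transfer protein, had the lowest log2 ratio of all members, with 146 on the knockdown array and 275 on the control array (log2 ratio -0.92, 1.89-fold). Its next probe set lay just under the signal limit and went the other way, with 130 on the knockdown array and 107 on the control array (log2 ratio 0.28). Its dimmer probe sets were higher on the knockdown array as well. One had 92.4 on the knockdown array and 57.8, below background, on the control array. The other was below background on both arrays. ITGBL1, which encodes a secreted protein with repeats like those of integrin beta subunits, had 363 on the knockdown array and 195 on the control array (log2 ratio 0.90), with 0.35 for its second probe set. ITGB1BP1, whose product binds the cytoplasmic tail of ITGB1, was at 0.14, the centromere protein gene ITGB3BP at 0.01 and ITGB1BP3 at -0.00. Without these 5 genes, the median of the 57 measured subunits and matrix proteins was 0.15, with 14 past 1.5-fold higher and 2 past 1.5-fold lower.

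Below the signal limit lay 21 members. Of these, 9 were at or below background on both arrays and have no fold, namely COL9A2, COL10A1, COL15A1, COL25A1, COL27A1, COL4A4, LAMA3, ITGB2 and ITGB6. ITGB2 encodes the beta subunit of leukocyte integrins, and COL10A1 the collagen of hypertrophic cartilage. Another 4 were above background on both arrays, namely COL21A1, COL6A6, LAMB4 and ITGA7.

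By their brightest probe set, 7 of the 21 were above background on the knockdown array alone, where 18% of all 3705 genes below the limit were. These were COL7A1 (at least 2.10-fold higher), COL28A1 (at least 2.03-fold), LAMB3 (at least 1.49-fold), COL26A1 (at least 1.42-fold), COL4A3 (at least 1.26-fold), COL19A1 (at least 1.21-fold) and ITGA8, whose second probe set was above background on the control array alone, each fold taken against the background of the control array. COL7A1 anchors the basement membrane of skin, and LAMB3 is a laminin chain of surface epithelia. Above background on the control array alone was LAMC3 (at least 1.03-fold lower on the knockdown array), where 10.8% of all genes below the limit were.

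**Figure D4:**
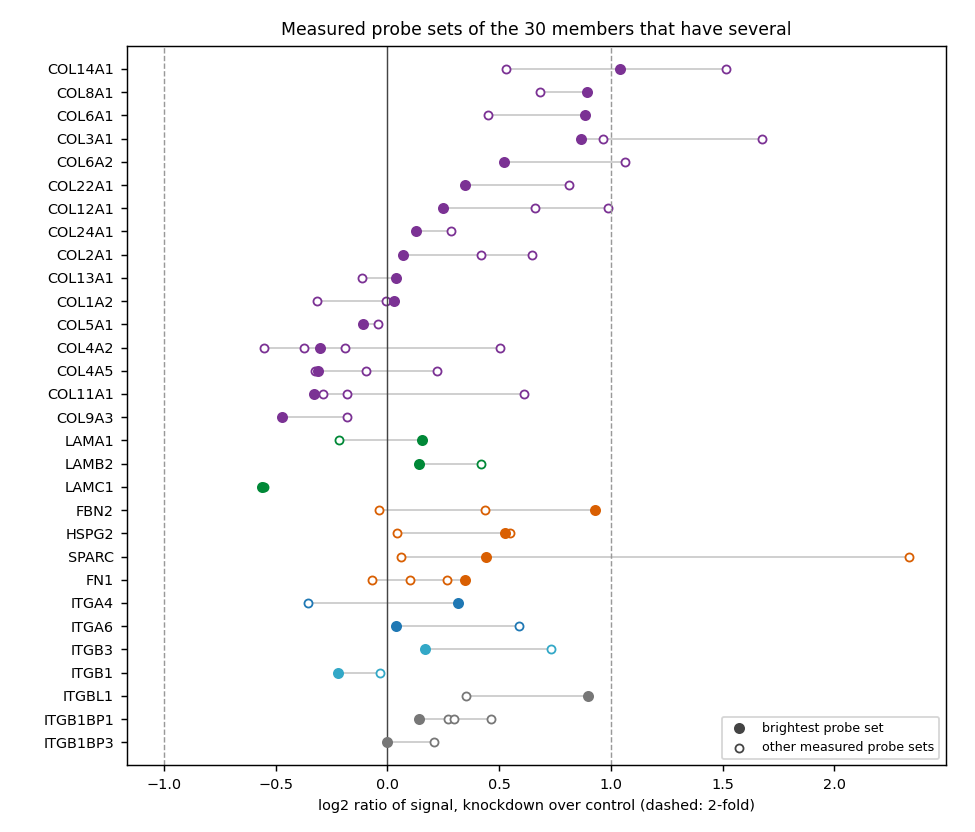
Log2 ratio of knockdown over control for every measured probe set of the 30 members with several, with the brightest as a filled point and the others as open points. Probe sets of COL14A1, COL3A1, COL8A1, COL6A1 and COL6A2 all lie above 0 and both of LAMC1 lie together near -0.55, while SPARC spans 0.06 to 2.33.

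Of the 62 measured members, 30 had several measured probe sets. All probe sets were above 0 in 16 of these genes and all were below 0 in 4, and 10 (33.3%) had probe sets in both directions. Among all 3853 genes with several measured probe sets, 53.0% had both directions. How the rest of these divided between all above 0 and all below 0 was not counted, so the 16 and 4 stand without that comparison. The array as a whole leaned upward too when other probe sets were used. With the mean of measured probe sets, the median log2 ratio was 0.10 over all measured genes and 0.18 over members. With the second-brightest measured probe set, these medians were 0.11 and 0.12. The 4 genes with all probe sets lower were LAMC1, ITGB1, COL5A1 and COL9A3. The 10 genes with both were COL11A1, COL13A1, COL1A2, COL4A2, COL4A5, LAMA1, FBN2, FN1, ITGA4 and ITGB1BP3. Of the measured members, 22 had a log2 ratio larger than the probe set spread at their signal, where 24.6% of all measured genes did.

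Several members lie beside each other in the RefSeq gene order of the assembly GRCg7b, and both genes were measured in 4 such pairs. COL6A1 and COL6A2 had log2 ratios of 0.88 and 0.52, and COL5A2 and COL3A1 had 0.21 and 0.87. The pairs of type IV collagen genes, which are transcribed away from each other in vertebrates, had 0.15 for COL4A1 and -0.30 for COL4A2, and -0.31 for COL4A5 and 0.69 for COL4A6. The opposite signs of COL4A1 and COL4A2 were lost under all 3 scalings, which put COL4A1 between -0.09 and -0.04.

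Genes that act with the members were described from lists by function, which were chosen with earlier results of these data known. Of 21 measured genes for collagen processing, 4 passed 1.5-fold higher and 1 lower, with a median log2 ratio of 0.10. P3H3, a prolyl 3-hydroxylase of collagen, had 486 on the knockdown array and 213 on the control array (log2 ratio 1.19), and MIA3, which loads procollagen into transport vesicles, was at 0.89. Of 29 measured other matrix glycoproteins, 8 were at least 1.5-fold higher and 2 lower, with a median of 0.37. SMOC2, a calcium-binding basement membrane protein related to SPARC, had 507 on the knockdown array and 204 on the control array (log2 ratio 1.31). SPOCK3, a relative of SPARC, was at 1.05, CYR61, which binds alpha V integrins, at 1.03, and LTBP2, which binds fibrillin, at 0.99.

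Of 17 measured proteoglycan and hyaluronan genes, 4 passed 1.5-fold higher and 2 lower, with a median of 0.09. The 2 lower ones were SDC3, the neuronal syndecan (820 on the knockdown array and 1522 on the control array, log2 ratio -0.89), and the glypican gene GPC1 (-0.64). Of 17 measured proteases and inhibitors, 3 were at least 1.5-fold higher and 1 lower, with a median of 0.23. TIMP2, an inhibitor of matrix metalloproteinases, had 1005 on the knockdown array and 355 on the control array (2.83-fold), ADAMTS1 was at a log2 ratio of 1.28, the membrane-anchored inhibitor RECK at 0.92, and the neuronal metalloproteinase gene MMP24 at -1.08.

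Integrin adaptors had a median of 0.06 over 23 measured genes, with 3 at least 1.5-fold higher and 2 lower. PARVB, which links integrin-linked kinase to actin, had 530 on the knockdown array and 202 on the control array (log2 ratio 1.40). TLN2 (talin) was at 0.89 and FERMT1 (kindlin) at 0.80, both activators of integrins. PTK2, the focal adhesion kinase, was lower, with 6549 on the knockdown array and 10574 on the control array (log2 ratio -0.69). All 12 measured genes of other matrix receptors lay within 1.5-fold, with a median of 0.27 and dystroglycan (DAG1) at 0.40. At least 1.5-fold calls for these lists stand beside 11.4% higher and 5.71% lower over all measured genes.

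**Figure D5:**
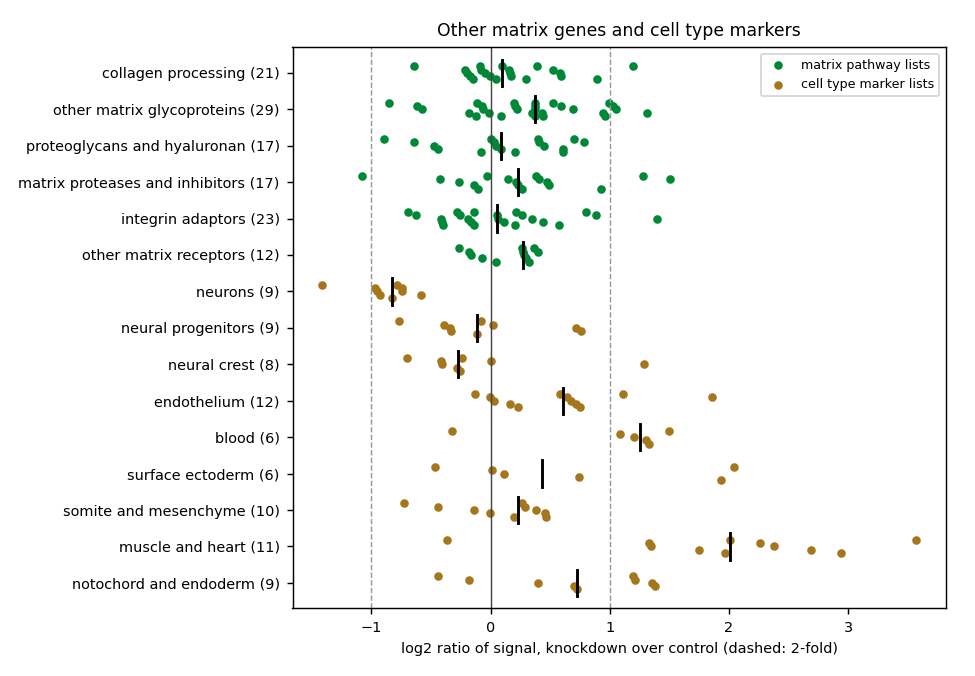
Log2 ratio of knockdown over control for the measured genes of 6 lists of other matrix genes (green) and 9 lists of cell type markers (brown), with medians as black bars. Matrix lists have medians from 0.06 to 0.37, while the muscle and heart list has a median of 2.01 and the neuron list one of -0.83.

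Markers of several cell types differed between the arrays too. The marker lists were chosen with earlier results of these data known, so their counts describe these 2 arrays and are no independent support. Of 13 muscle and heart genes, 10 of 11 measured were at least 2-fold higher, where 3.64% of all measured genes were, and the list's signals summed to 16612 on the knockdown array and 3236 on the control array. Of the 10, 3 reached the signal limit on the knockdown array alone and could be measured only by being higher there, and 7 reached it on both arrays. ACTC1, cardiac actin, had 6647 on the knockdown array and 559 on the control array (log2 ratio 3.57). Of 14 endothelial genes, 2 of 12 measured were at least 2-fold higher (CDH5 and TEK). At least 1.5-fold higher were 6 of the 12, where 11.4% of all measured genes were, and none was at least 1.5-fold lower. Of the 12, 4 reached the signal limit on the knockdown array alone. The endothelial sums were 5295 on the knockdown array and 3464 on the control array. The notochord and endoderm markers summed to 5617 on the knockdown array and 3584 on the control array, with 4 of 9 measured at least 2-fold higher. Surface ectoderm markers summed to 7615 on the knockdown array and 5211 on the control array, with 2 of 6 measured at least 2-fold higher, among them the keratin gene KRT7.

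Somite and mesenchyme markers differed less. Of 15 such genes, 10 were measured, none was at least 1.5-fold higher, 1 (FOXC2) was at least 1.5-fold lower, and the sums were 6981 on the knockdown array and 6061 on the control array. At or below background on both arrays were MSGN1, TBX18 and FOXF1 of this list, NKX2-5 of the muscle and heart list, ESRP1 of the surface ectoderm list, FOXA1 of the notochord and endoderm list, RHAG of the blood list, and none of the endothelial, neuron and neural crest markers. Neural crest markers summed to 11619 on the knockdown array and 13932 on the control array, with a median of -0.27. Of the 8 measured, 6 lay below 0, among them ETS1 at -0.70, and 2 above 0, among them SNAI2 at 1.29. Blood markers summed to 66839 on the knockdown array and 32182 on the control array, with 5 of 6 measured at least 2-fold higher. Neuron markers summed to 43329 on the knockdown array and 77966 on the control array. At least 1.5-fold lower were 8 of the 9 measured, where 5.71% of all measured genes were. Of the genes at least 2-fold higher, those that reached the signal limit on both arrays were 1 of 2 endothelial, 3 of 4 notochord and endoderm, 4 of 5 blood and 2 of 2 surface ectoderm markers. The part of these cell types in the differences of the matrix and integrin genes was not tested.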

How the data were processed

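The authors deposited 1 linear signal intensity per probe set and array. The submitters' processing notes name MAS5 5.0. Leaving out the top and bottom 2% of values, the mean was 1000.3 on both arrays, which shows that the signals came scaled to a common level. The protocols in the labels give an input of 100 ng RNA and the 3' IVT Express kit.

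Of 37693 chicken probe sets, 27166 had 1 gene symbol in the platform annotation, 177 had several and 10350 had none, and the last 2 kinds were left out. Members kept the platform's symbol, and other genes took the current symbol through their Entrez number from RefSeq's gene table of GRCg7b, which held 229 of the 230 member probe sets. COL16A1 has probe sets under 2 Entrez numbers, which were taken as 1 gene. Background came from 687 viral probe sets without a chicken gene. List genes were matched by symbol (259 of 298, of which CCN1 to CYR61 by synonym). Spread between probe sets was computed over 3853 genes in 10 groups of mean signal. The limits of these groups were the deciles of all measured genes, and the groups held from 612 to 1321 probe sets.

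Computation used Python 3.11.15, pandas 2.3.3, NumPy 2.4.6 and statsmodels 0.14.6 (loess span 0.3), and the rule for counts was checked on simulated signals. The simulated noise was far below the spread between probe sets, so that check covers the arithmetic and not calls near 1.5-fold. Members, lists and thresholds were chosen with earlier results of these data known. All members may be named; of each list, up to 4 measured genes with the largest log2 ratio in size. Alternatives were 3 scalings, a floor at background, 3 filters, 2 other probe set rules and the members without the 5 that are not subunits. Of these, the second-brightest probe set was chosen after the data were seen. No sequences of the probes, proteins or promoters were used here.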

Additional observations from a re-analysis of the deposited data

How the results depend on the processing

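With 1 array per group no array could be left out, and no p-value depends on the processing because none was computed. No paired analysis was possible because each group holds 1 sample. Of 95 values of counts and medians under 10 alternatives, 59 stayed near the value as reported and 36 moved. A median counted as moved when it changed sign or changed by more than 0.48 (the SD between probe sets of a gene) divided by the square root of its number of genes, and a count when it changed by over 1.5 times. This cut only sorts the moves by size. Genes are not replicates of a group, so it does not measure the precision of a median. The cause of these moves was not tested, except that a filter changes the number of genes counted.

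Median centring, which shifts every log2 ratio by 1 constant, gave 1 member at least 2-fold higher and 1 lower, 8 and 5 past 1.5-fold, and medians of -0.10 for members, -0.17 for collagens, -0.20 for laminins, 0.31 for other matrix proteins, -0.069 for alpha subunits and -0.27 for beta subunits. Of all 9303 measured genes, 162 were then past 2-fold higher and 269 lower, and 553 and 1383 were past 1.5-fold. Quantile normalization gave 1 higher and 1 lower past 2-fold, 9 at least 1.5-fold higher, a members' median of 0.074 and a laminin median of -0.080. Of all 9300 genes measured then, 209 were past 2-fold higher, 168 past 2-fold lower and 722 past 1.5-fold higher. Removing the loess curve gave 1 higher and 1 lower past 2-fold, 9 at least 1.5-fold higher and a laminin median of -0.077, where 220 of 9303 genes were past 2-fold higher, 162 past 2-fold lower and 747 past 1.5-fold higher. The 1 lower member was COL4A3BP in each case. With the filter at the 25th percentile, 7 of 73 members were at least 2-fold higher, where 815 of all 11630 genes were. With the filter at the 75th percentile, 1 of 32 was at least 2-fold higher, 3 were at least 1.5-fold higher and 1 lower, and the median was 0.033. Of all 5883 genes past that filter, 71 were at least 2-fold higher, 285 at least 1.5-fold higher and 293 lower, with a median of -0.036. Without a filter, 13 of 83 were at least 2-fold higher and 2 lower, 27 and 6 were past 1.5-fold, and the medians were 0.21 for members and 0.36 for beta subunits. Of all 13008 genes, 1300 were then past 2-fold higher and 652 past 2-fold lower, and 2462 and 1351 were past 1.5-fold. The mean of measured probe sets gave -0.032 for laminins and 0.16 for beta subunits. The second-brightest probe set, added once the data had been seen, gave 4 of 62 members at least 2-fold higher, where 597 of 9303 genes were, and medians of -0.056 for laminins, 0.36 for other matrix proteins and 0.26 for beta subunits. It was also the alternative under which FBN2 turned to -0.040. A floor at background and leaving out the 5 genes that are not subunits moved none of these counts and medians in that sense.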
